A study of Mus musculus with 16 samples.

Results

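The 9 transcripts described here mark T lymphocytes: Cd3d, Cd3e, Cd3g, Cd2, Lck, Icos, Gata3, Il7r and Thy1. They were chosen by symbol from a table of 23159 genes counted in RNA from mouse bronchoalveolar lavage, the washing of the airways with fluid. All 9 symbols had a row, and 8 had enough reads to be tested, the exception being Thy1. The cells are labelled macrophages, and several of these genes are known in other cells too, so a value is a level of RNA and not a number of T cells.

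Each of 4 groups had 4 libraries. The TLR3-KO injured libraries came from mice without Toll-like receptor 3, an endosomal sensor of double-stranded RNA, sampled following pneumonia. The TLR3-KO control libraries came from mice of that genotype whose treatment label reads none. The WT injured and WT control libraries were their wild-type counterparts. The protocols describe an inoculum of 500 CFU of Klebsiella pneumoniae per 30 µl, with saline as its counterpart, placed deep in the hypopharynx. Mouse strain, age and time after infection are not stated in these sources. The series text counts 15 samples where the table holds 16. Whether libraries stand for separate mice is not stated in the labels, so a p-value here measures the spread between libraries, which may be technical.

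Total counts per library lay between 29667102 and 59640251, and levels are given as CPM, the reads of a gene scaled to the total of its library. Macrophage genes were abundant in every library. Cd68, a lysosomal glycoprotein of macrophages, had 1153 to 1617 CPM, and Marco, a scavenger receptor of alveolar macrophages, had 580 to 1259 CPM. Tlr3 had 0.274 to 0.717 CPM in the 8 TLR3-KO libraries and 2.18 to 4.53 CPM in the 8 WT libraries, as the genotype labels would have it. The series title speaks of male mice, but TLR3-KO controls 1, 2 and 3 carried Xist, the X-inactivation RNA of female cells, at 20.3 to 42.3 CPM, against at most 0.230 CPM in the other 13 libraries. In both genotypes, controls 3 and 4 stood apart from controls 1 and 2 in many genes, and the values below are therefore also given for each pair of controls.

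A T lymphocyte recognises antigen through its T cell receptor, whose antigen-binding chains cannot signal by themselves. The CD3 chains assemble with them and carry the motifs that the kinase LCK phosphorylates when the receptor is engaged, and CD2 strengthens contact with the other cell. Few T cells patrol the airspace of a healthy mouse lung, where alveolar macrophages make up most of the cells that lavage recovers. Genes of the antigen-binding chains themselves, Trac, Trbc1 and Trbc2, were looked up and matched no row, so they could not be read here. Lavage RNA is a bulk measurement, so fewer T cells and less RNA per T cell cannot be told apart.

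The 3 CD3 genes lie together on chromosome 9 (mm10, GENCODE M21). Cd3g (ENSMUSG00000002033.14) spans chr9:44969572-44980431 on the minus strand, Cd3d (ENSMUSG00000032094.8) chr9:44981786-44987339 on the plus strand and Cd3e (ENSMUSG00000032093.7) chr9:44998740-45009627 on the minus strand. The cluster covers 40056 bases, and Cd3g and Cd3d are read away from each other from starts 1355 bases apart. Their promoters are shown because these 3 genes carry the pattern described next. RefSeq (GRCm38.p6) had promoters for 6 of the 9 genes, 7 in all, each with 250 bases before the start and 50 after it. Capitals mark E-boxes, the letters CACCTG or CAGCTG on either strand, which E proteins are known to bind in lymphocyte genes.
Cd3g, chr9:44980382-44980681, minus strand: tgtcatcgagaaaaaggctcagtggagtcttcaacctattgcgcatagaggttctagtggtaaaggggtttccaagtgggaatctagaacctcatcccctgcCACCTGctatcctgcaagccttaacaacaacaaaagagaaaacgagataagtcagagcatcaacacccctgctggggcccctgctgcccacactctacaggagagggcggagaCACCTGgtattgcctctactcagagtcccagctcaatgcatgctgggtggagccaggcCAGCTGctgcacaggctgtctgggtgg
Cd3d, chr9:44981536-44981835, plus strand: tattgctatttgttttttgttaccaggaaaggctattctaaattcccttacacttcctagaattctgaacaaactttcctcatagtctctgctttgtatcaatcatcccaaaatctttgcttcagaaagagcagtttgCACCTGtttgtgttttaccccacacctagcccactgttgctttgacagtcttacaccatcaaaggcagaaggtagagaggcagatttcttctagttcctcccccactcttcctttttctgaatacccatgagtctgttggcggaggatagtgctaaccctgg
Cd3e, chr9:45009562-45009861, minus strand: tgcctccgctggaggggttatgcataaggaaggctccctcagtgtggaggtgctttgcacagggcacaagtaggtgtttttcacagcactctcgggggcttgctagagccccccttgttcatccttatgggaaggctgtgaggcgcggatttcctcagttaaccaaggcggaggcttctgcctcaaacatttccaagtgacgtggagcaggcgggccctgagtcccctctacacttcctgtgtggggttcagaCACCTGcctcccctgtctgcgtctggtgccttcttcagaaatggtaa

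The Cd3g window held 3 E-boxes, and the Cd3d and Cd3e windows held 1 each. Of the 7 promoters, 6 held at least 1, as did 32.9% of 32851 mouse promoters of the same length. The RUNX letters TGTGGT or TGCGGT, on either strand, were absent from the 3 CD3 windows and present in 22.4% of all promoters. These matches describe the windows and do not show that a factor is bound there.

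The CD3 chains had few reads in most libraries and more in 2 of them, TLR3-KO controls 3 and 4, though still only 0.713 to 2.49 CPM each. The CD3 gamma chain, encoded by Cd3g, had 0.0941, 0.0634, 0.169 and 0.440 CPM in TLR3-KO injured libraries 1 to 4, against 0.0474, 0.0210, 2.49 and 1.56 CPM in TLR3-KO controls 1 to 4. It had 0.233, 0.359, 0.114 and 0.340 CPM in WT injured libraries 1 to 4, against 0.101, 0.0914, 0.271 and 0.548 CPM in WT controls 1 to 4. In TLR3-KO the 4 injured libraries thus lay above controls 1 and 2 and below controls 3 and 4. Behind these values stood 118 Cd3g reads in TLR3-KO control 3, 68 in control 4, 2 in control 1 and 1 in control 2.

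The CD3 epsilon chain, encoded by Cd3e, is needed for the receptor to reach the cell surface. Cd3e had 0.188, 0.169, 0.135 and 0.603 CPM in TLR3-KO injured libraries 1 to 4, against 0, 0.0421, 1.48 and 1.24 CPM in TLR3-KO controls 1 to 4. For TLR3-KO control 1, that 0 allows up to 0.0711 CPM, or 3 reads of that library's total. It had 0.181, 0.249, 0.206 and 0.473 CPM in WT injured libraries 1 to 4, against 0.218, 0.0685, 0.172 and 0.548 CPM in WT controls 1 to 4. As for Cd3g, all 4 TLR3-KO injured libraries fell between the low and the high pair of controls, while the WT groups overlapped throughout.

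The CD3 delta chain, encoded by Cd3d, had 0.165, 0.106, 0.0674 and 0.371 CPM in TLR3-KO injured libraries 1 to 4, against 0.190, 0.0842, 0.970 and 0.713 CPM in TLR3-KO controls 1 to 4. In WT injured libraries 1 to 4 it had 0.129, 0.304, 0.320 and 0.246 CPM, against 0.0671, 0.0457, 0.172 and 0.384 CPM in WT controls 1 to 4. TLR3-KO controls 3 and 4 were again the highest of the 16 libraries, followed by WT control 4 and TLR3-KO injured 4. Exact 95% Poisson intervals, which cover counting error only, ran from 0.710 to 1.29 CPM in TLR3-KO control 3 and from 0.0229 to 0.216 CPM in TLR3-KO control 2. For Cd3d the difference among controls of 1 genotype was thus larger than counting error.

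**Figure D1:**
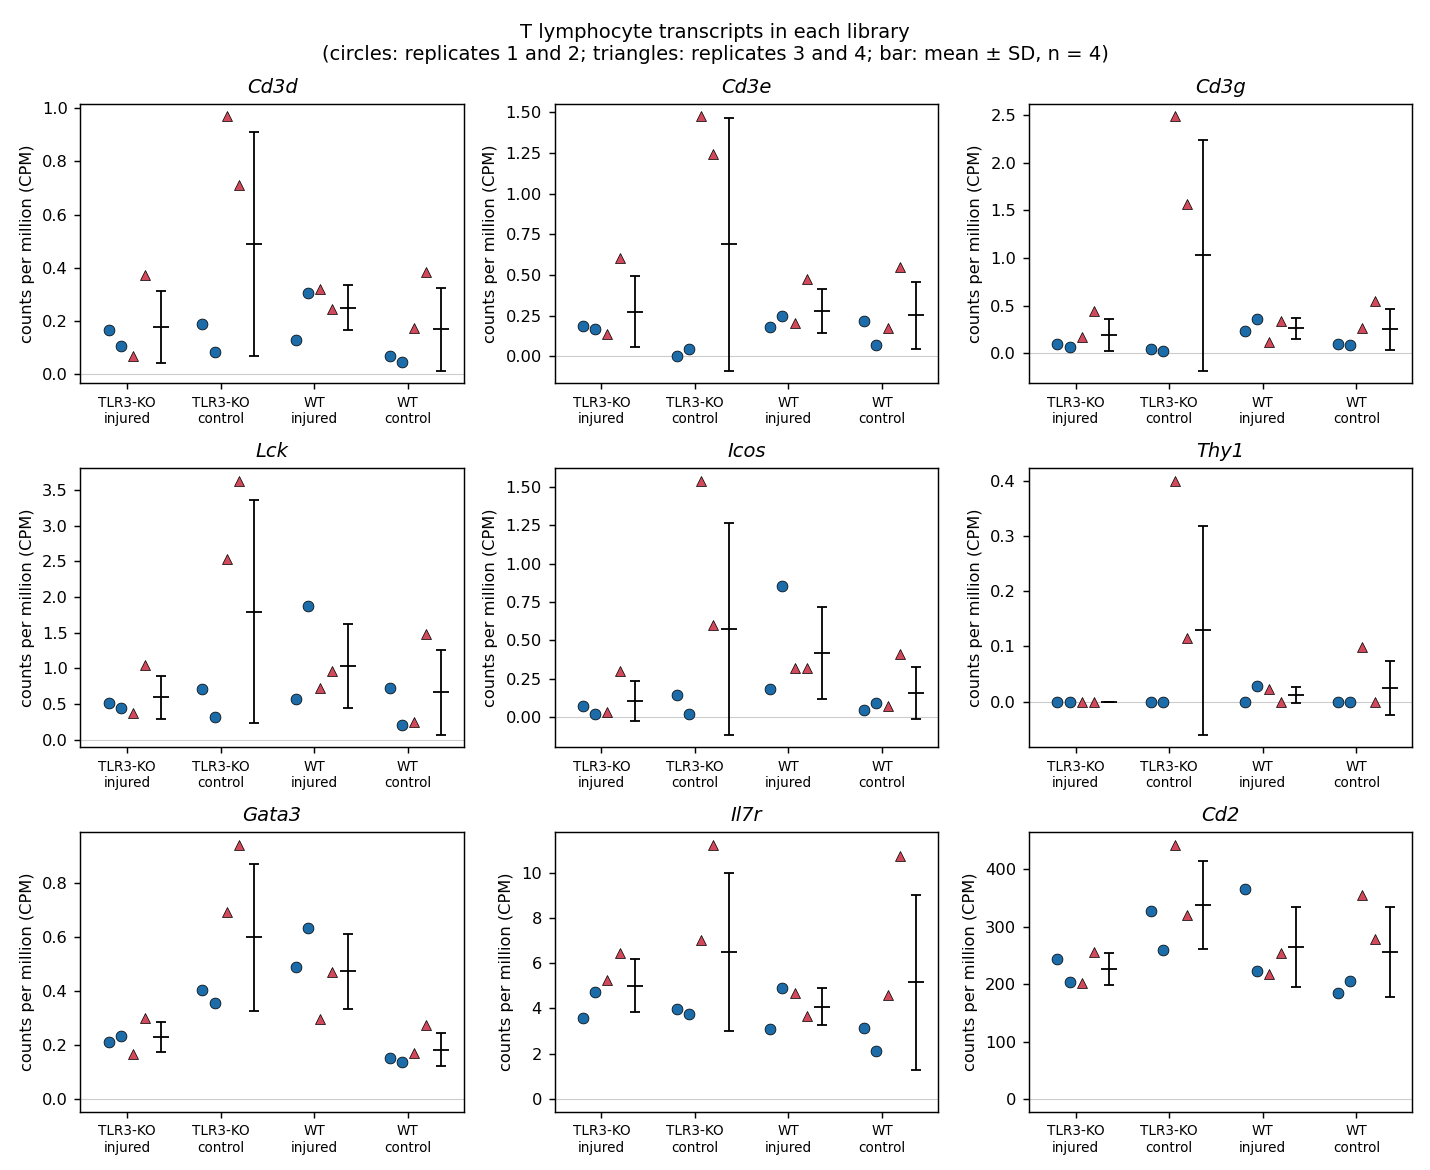
CPM of the 9 transcripts in each of the 16 libraries, 1 panel a gene with its own axis from 0 CPM, for TLR3-KO injured, TLR3-KO control, WT injured and WT control libraries. Circles are replicates 1 and 2, triangles replicates 3 and 4, and bars the mean with SD over 4 libraries. TLR3-KO controls 3 and 4 lie above every other library for Cd3d, Cd3e, Cd3g and Lck, while Cd2 has 184 to 442 CPM in every library.

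Summed over the 3 chains, CD3 had 0.447, 0.338, 0.371 and 1.41 CPM in TLR3-KO injured libraries 1 to 4, against 0.237, 0.147, 4.93 and 3.52 CPM in TLR3-KO controls 1 to 4. TLR3-KO controls 3 and 4 together held 387 CD3 reads and controls 1 and 2 held 17. Summed CD3 had 0.543, 0.912, 0.640 and 1.06 CPM in WT injured libraries, against 0.386, 0.206, 0.615 and 1.48 CPM in WT controls. WT controls 3 and 4 held 79 CD3 reads together and controls 1 and 2 held 32, a gap in the same direction as in TLR3-KO but smaller. Of the libraries that carried Xist, TLR3-KO controls 1 and 2 were low in CD3 and TLR3-KO control 3 was high. TLR3-KO control 4, high in CD3, and the TLR3-KO injured libraries did not carry it, and its part in the comparison was not tested.

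LCK is the kinase that starts signalling from the T cell receptor. Lck (ENSMUSG00000000409.14, chr4:129548344-129573641) had 0.518, 0.444, 0.371 and 1.04 CPM in TLR3-KO injured libraries 1 to 4, against 0.711, 0.316, 2.53 and 3.63 CPM in TLR3-KO controls 1 to 4. It had 0.569, 1.88, 0.731 and 0.964 CPM in WT injured libraries 1 to 4, against 0.721, 0.206, 0.246 and 1.48 CPM in WT controls 1 to 4. WT injured 2 was the highest library outside TLR3-KO controls 3 and 4, and both pairs of groups overlapped.

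ICOS is a costimulatory receptor that appears on activated T cells and is known on group 2 innate lymphoid cells too. Icos (ENSMUSG00000026009.14, chr1:60977927-61000320) had 0.0706, 0.0211, 0.0337 and 0.301 CPM in TLR3-KO injured libraries 1 to 4, against 0.142, 0.0210, 1.54 and 0.598 CPM in TLR3-KO controls 1 to 4. It had 0.181, 0.856, 0.320 and 0.321 CPM in WT injured libraries 1 to 4, against 0.0503, 0.0914, 0.0738 and 0.411 CPM in WT controls 1 to 4. In WT, 3 of the 4 controls lay below all injured libraries and the fourth lay within their range.

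Thy1, the classical mouse surface marker of T cells, was nearly absent. Thy1 (ENSMUSG00000032011.5, chr9:44043384-44048579) had no read in any of the 4 TLR3-KO injured libraries, against 0, 0, 19 and 5 reads in TLR3-KO controls 1 to 4. Over the group, its observed TLR3-KO control level was 7.20 times the TLR3-KO injured limit, taking 3 reads over the group as the limit that 0 allows. Of the 24 control reads 19 came from TLR3-KO control 3, and without that library the ratio was 2.03, from 5 reads. Counting error of the control reads is not covered, so neither ratio is a lower bound on the fold. TLR3-KO controls 1 and 2 had no read, so no fold can be given against them. It had 0, 1, 1 and 0 reads in WT injured libraries 1 to 4, against 0, 0, 4 and 0 reads in WT controls 1 to 4. Thy1 did not pass the filter on low counts, and in a fit without the filter its adjusted p between TLR3-KO injured and TLR3-KO control libraries was 0.168 (edgeR quasi-likelihood test, Benjamini-Hochberg).

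GATA3 is the transcription factor of T cell development, T helper 2 cells and group 2 innate lymphoid cells. Gata3 (ENSMUSG00000015619.10, chr2:9857078-9890034) had 0.212, 0.233, 0.169 and 0.301 CPM in TLR3-KO injured libraries 1 to 4, against 0.403, 0.358, 0.696 and 0.943 CPM in TLR3-KO controls 1 to 4. It had 0.491, 0.635, 0.297 and 0.473 CPM in WT injured libraries 1 to 4, against 0.151, 0.137, 0.172 and 0.274 CPM in WT controls 1 to 4. The groups did not overlap in 3 comparisons: TLR3-KO injured libraries lay below TLR3-KO controls, WT injured above WT controls, and TLR3-KO controls above WT controls. These values rest on 5 to 41 reads per library. Gata3 overlaps 2 other counted genes, 9230102O04Rik on its own strand over 6500 bases and 4930412O13Rik on the opposite strand over 2670 bases, so its reads could be shared with theirs.

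IL7R is the receptor subunit for interleukin 7, a survival signal of naive and memory T cells, and is known on other lymphoid cells and on some macrophages. Il7r (ENSMUSG00000003882.5, chr15:9505788-9530176) had 3.6, 4.71, 5.26 and 6.45 CPM in TLR3-KO injured libraries 1 to 4, against 3.98, 3.77, 7.04 and 11.2 CPM in TLR3-KO controls 1 to 4. It had 3.10, 4.89, 4.66 and 3.69 CPM in WT injured libraries 1 to 4, against 3.15, 2.1, 4.60 and 10.7 CPM in WT controls 1 to 4. TLR3-KO control 4 and WT control 4 were the highest libraries, whereas TLR3-KO control 3, which had the most CD3, had 7.04 CPM. For each CD3 read there were 25.6 Il7r reads in TLR3-KO control 2 and 1.43 in TLR3-KO control 3, the highest and lowest ratios of the 16 libraries.

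Cd2 differed from the other 8 transcripts by its level. CD2 is an adhesion receptor of T and natural killer cells whose main ligand in the mouse is CD48, and mouse B cells carry it too. Cd2 (ENSMUSG00000027863.8, chr3:101275899-101287939) had 244, 204, 201 and 255 CPM in TLR3-KO injured libraries 1 to 4, against 328, 258, 442 and 320 CPM in TLR3-KO controls 1 to 4. It had 366, 222, 217 and 253 CPM in WT injured libraries 1 to 4, against 184, 205, 355 and 279 CPM in WT controls 1 to 4. The TLR3-KO injured libraries lay just below the TLR3-KO controls, while the WT groups overlapped. Cd2 made up 94.1% to 98.7% of the reads of the 9 transcripts, with 5966 to 20966 reads per library.

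Levels per kilobase of exon, counting every base of any annotated exon of a gene, set the transcripts roughly beside each other. Such a length can exceed that of the transcript present. As a mean over 16 libraries, Cd2 had 156 CPM per kb, against 1.11 for Il7r, 0.349 for Lck, 0.149 for Cd3d, 0.133 for Cd3g, 0.0934 for Gata3, 0.0917 for Icos, 0.0914 for Cd3e and 0.0139 for Thy1. On that scale Cd2 was above Ptprc, the CD45 phosphatase of all leukocytes, at 44.3 CPM per kb. Cd2 was below Marco at 479 and Cd68 at 1120 CPM per kb. Ptprc was divided by 18313 bases and Cd2 by 1741, so the order of these genes depends on this measure of length. By group, Cd2 had 130 CPM per kb in TLR3-KO injured libraries, 194 in TLR3-KO controls, 152 in WT injured libraries and 147 in WT controls.

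Cd2 was also not proportional to CD3. Its reads outnumbered CD3 reads 89.6 to 1 in TLR3-KO control 3 and 1754 to 1 in TLR3-KO control 2. Over the 16 libraries, Pearson's r of log2(CPM + 0.1) was 0.926 between Cd3e and Cd3g, 0.870 between Cd3d and Cd3g and 0.833 between Cd3d and Cd3e. For Cd2 with the other 8 transcripts r lay between 0.348 and 0.661. The libraries share their depth and the split between the pairs of controls, so these values are descriptions.

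**Figure D2:**
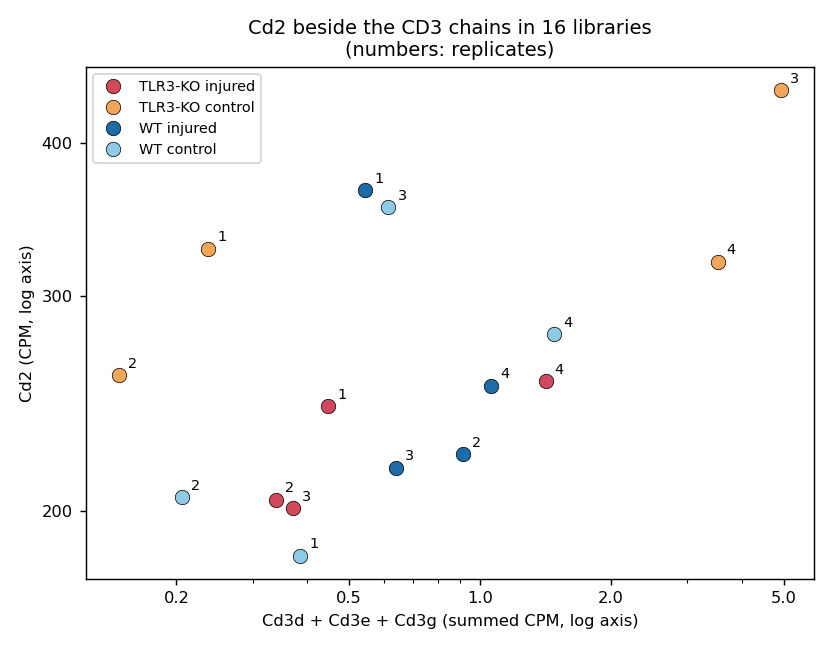
Cd2 against the sum of Cd3d, Cd3e and Cd3g, both in CPM on log axes, with 1 point for each of the 16 libraries labelled by replicate number and coloured by group. Summed CD3 runs from 0.147 to 4.93 CPM while Cd2 runs from 184 to 442 CPM, and WT injured 1 has 366 CPM of Cd2 beside 0.543 CPM of CD3.

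The first comparison asked how the transcripts differed in TLR3-KO libraries following pneumonia. All 8 tested transcripts had negative fitted log2 fold changes, from -2.44 for Cd3g to -0.42 for Il7r, and the median was -1.44 beside -0.01 over all genes tested. A negative value was fitted for 51.5% of all genes. None of the 8 passed an adjusted p of 0.05 (edgeR quasi-likelihood test, Benjamini-Hochberg over 12455 genes), where 0.578% of all genes passed as higher and 0.514% as lower. At an unadjusted p under 0.05 there were 5 of 8, namely Cd2, Cd3g, Gata3, Icos and Lck, against 23.9% of all genes. DESeq2 called Gata3 (log2 fold change -1.42, adjusted p = 0.0242) and Cd2 (-0.64, adjusted p = 0.0468) among 1031 genes, where edgeR called 136.

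Gata3 came closest to the threshold. It averaged 0.229 ± 0.0554 CPM in TLR3-KO injured libraries and 0.60 ± 0.273 CPM in TLR3-KO controls (SD, n = 4 each), a log2 fold change of -1.41 (SE 0.36, 95% interval -2.17 to -0.65). Its adjusted p was 0.0572 by edgeR's quasi-likelihood test. Cd2 averaged 226 ± 27.5 CPM in TLR3-KO injured libraries and 337 ± 76.6 CPM in TLR3-KO controls, a log2 fold change of -0.64 (SE 0.21, edgeR adjusted p = 0.106). Gata3 and Cd2 were also the 2 of 8 transcripts whose TLR3-KO injured libraries all lay below the controls, as did those of 3.05% of all genes, and 0 of 8 lay above, against 11.2%. Both passed by edgeR when TLR3-KO control 2 was left out, at adjusted p-values of 0.0246 for Gata3 and 0.0457 for Cd2, where 1245 genes passed in all. Neither passed when any 1 of the other 7 libraries was left out, with edgeR adjusted p-values of 0.0737 to 0.1915 for Gata3 and 0.1204 to 0.2855 for Cd2.

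The CD3 chains spread too widely among controls for their differences to be resolved. Cd3g averaged 0.192 ± 0.172 CPM in TLR3-KO injured libraries and 1.03 ± 1.21 CPM in TLR3-KO controls (log2 fold change -2.44, SE 1.01, edgeR adjusted p = 0.167). Cd3d averaged 0.177 ± 0.135 and 0.489 ± 0.422 CPM in the same groups (-1.46, SE 0.71), and Cd3e 0.274 ± 0.220 and 0.690 ± 0.778 CPM (-1.33, SE 0.93). The SD among controls was close to or above the mean for each chain. Icos had a fitted value of -2.41 (SE 1.0), Lck of -1.61 (SE 0.69) and Il7r of -0.42 (SE 0.39, 95% interval -1.26 to 0.42).

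**Figure D3:**
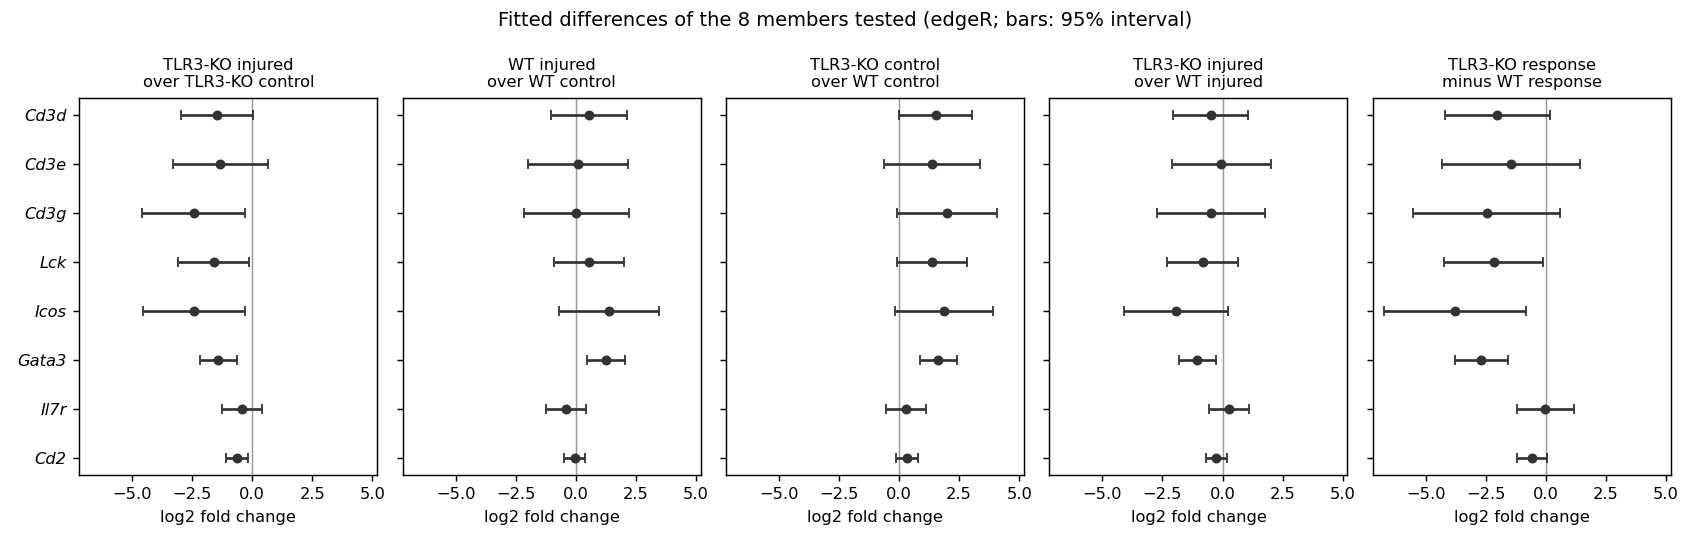
Fitted log2 fold changes with 95% intervals of the 8 tested transcripts, 1 panel for each comparison, with 0 as a grey line. In TLR3-KO injured over TLR3-KO control all 8 points lie below 0, in TLR3-KO control over WT control all 8 lie above it, and none of the 40 values passed the adjusted threshold.

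The TLR3-KO comparison depended on which controls were used. Against TLR3-KO controls 3 and 4 alone, all 8 transcripts passed as lower in injured libraries, from -3.41 for Cd3g (edgeR adjusted p = 0.00255) to -0.77 for Cd2 (edgeR adjusted p = 0.0217), where 33% of all genes passed in either direction. Against TLR3-KO controls 1 and 2 alone, none passed, 0.658% of all genes did, and the median of the 8 was 0.28. Of these 8 values Gata3 and Cd2 stayed negative, and Lck, Il7r, Cd3d and Icos were between 0.11 and 0.34. Those of Cd3e and Cd3g were positive as well, but TLR3-KO controls 1 and 2 held 0 and 2 Cd3e reads and 2 and 1 Cd3g reads, so the size of these values depends on the prior count and measures no fold. Controls 3 and 4 lay above controls 1 and 2 without overlap for 7 of the 8 transcripts, all but Cd2, as they did for 39.9% of all tested genes.

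**Figure D4:**
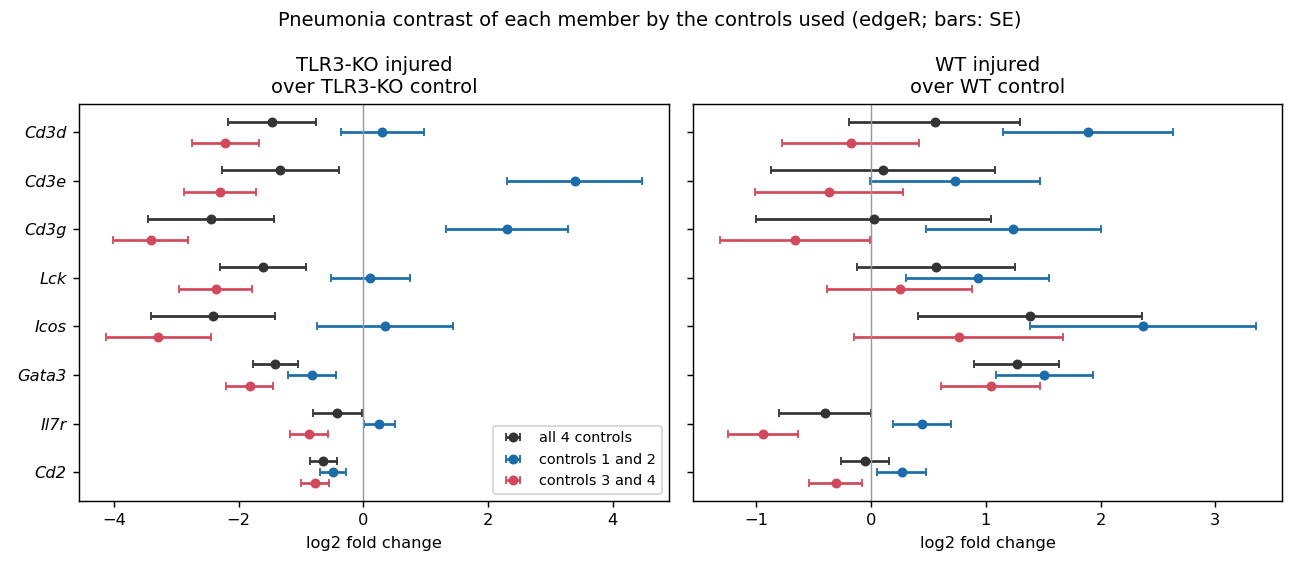
Log2 fold changes with SE of the 8 tested transcripts, TLR3-KO injured over control on the left and WT injured over control on the right, fitted with all 4 controls, controls 1 and 2 or controls 3 and 4. In TLR3-KO, Cd3d is -1.46 with all controls and 0.31 with controls 1 and 2, while Gata3 and Cd2 stay below 0 with each set. Cd3e and Cd3g against controls 1 and 2 rest on at most 2 reads in each of these controls.

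Following pneumonia in WT, none of the 8 transcripts passed (0 of 12455 genes did, 0% in each direction), and 1 of 8 had an unadjusted p under 0.05 against 10.7% of all genes. DESeq2 called none of the 8 and 181 genes in all. The median of the 8 fitted values was 0.33, with 2 negative, where 48.7% of all genes were negative. Gata3 averaged 0.474 ± 0.139 CPM in WT injured libraries and 0.184 ± 0.0620 CPM in WT controls (SD, n = 4 each; log2 fold change 1.27, SE 0.37, edgeR adjusted p = 0.229). It was the 1 transcript whose injured libraries all lay above the controls, as did those of 3.83% of genes, and no transcript lay below them throughout, as 0.682% of genes did. Against WT controls 1 and 2 alone Gata3 passed (1.51, edgeR adjusted p = 0.037), where 13.3% of all genes passed.

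The other WT values had wide intervals on both sides of 0. Icos was fitted at 1.38 (SE 0.97), Lck at 0.56 (SE 0.69), Cd3d at 0.55 (SE 0.74), Cd3e at 0.10 (SE 0.98) and Cd3g at 0.02 (SE 1.03). The Cd3g interval ran from -2.15 to 2.2, so a 4-fold difference in either direction lies within it. Cd2 was fitted at -0.05 (SE 0.21, 95% interval -0.50 to 0.40) and Il7r at -0.40 (SE 0.40). WT controls 3 and 4 lay above controls 1 and 2 without overlap for Cd3d, Cd3g, Cd2, Gata3 and Il7r, 5 of 8 transcripts, against 43.8% of genes. With controls 3 and 4 alone 0 of 8 passed, beside 0.49% of all genes.

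Between genotypes, TLR3-KO controls had more of each tested transcript than WT controls by the fitted values, and none passed. The 8 log2 fold changes were all positive, with a median of 1.45 beside 0.04 over all genes, and 45.3% of all genes were negative. Adjusted p-values under 0.05 were reached by 0 of 8, against 0.249% of genes as higher and 0.409% as lower, and unadjusted ones by 2 of 8, Cd3d and Gata3, against 19.8%. Gata3 averaged 0.60 ± 0.273 CPM in TLR3-KO controls and 0.184 ± 0.0620 CPM in WT controls (log2 fold change 1.63, SE 0.36, edgeR adjusted p = 0.0503). Its TLR3-KO controls all lay above its WT controls, as did those of 5.92% of genes, and 0 of 8 transcripts lay below, against 2.22%. Gata3 passed with RLE size factors (1.61, edgeR adjusted p = 0.0467, among 147 genes) and in DESeq2 (adjusted p = 0.0106, among 781 genes). It also passed without TLR3-KO control 2 (edgeR adjusted p = 0.025, among 464 genes) or WT control 3 (edgeR adjusted p = 0.0475, among 422 genes). Gata3 did not pass with the replicate block (edgeR adjusted p = 0.0701), without robust estimation (0.0501), without a filter (0.0703), with voom (0.0589), with either pair of controls (0.1536 and 0.1998) or without any 1 of the other 6 libraries (0.0658 to 0.1604). The same TLR3-KO controls enter this comparison and the pneumonia comparison, so their values are not independent.

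Control libraries of both genotypes that shared a replicate number departed from their group means alike, as the processing account describes. The split between the pairs of controls, present in both genotypes, would give this too, so pairing of single libraries was not shown. With the number as a block, 31 genes passed between control genotypes in place of 82, and still none of the 8 transcripts. With controls 1 and 2 alone the median of the 8 was 0.28, and Cd3e and Cd3g were negative on the few reads of TLR3-KO controls 1 and 2 given above. With controls 3 and 4 alone it was 1.79, and 0 of 8 passed under either choice, beside 1.92% and 0.153% of genes. TLR3-KO injured and WT injured libraries did not differ in any of the 8 by the adjusted test, where 0.377% of genes passed as higher and 0.225% as lower. No transcript separated these groups without overlap, against 9.14% of genes as higher and 3.18% as lower. Of the 8 fitted values 7 were negative, beside 51.4% of all genes, from -1.93 for Icos (SE 1.01) to -0.05 for Cd3e (SE 0.97), and Gata3 alone had an unadjusted p under 0.05 (-1.06, SE 0.36, edgeR adjusted p = 0.194), against 16% of genes.

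The response to pneumonia was set against genotype as an interaction. Gata3 had the smallest unadjusted p of the 8, 8.62e-05 by edgeR, with an interaction of -2.68 (SE 0.51, 95% interval -3.77 to -1.59). Its adjusted p was 0.237 by edgeR, and no gene passed (0% in each direction). DESeq2 called Gata3 (-2.69, adjusted p = 0.0126) among 98 genes. With controls 1 and 2 alone 0 of 8 passed by edgeR, beside 0.45% of all genes. All 8 interactions were negative, as were 52.8% of those of all genes, with a median of -2.09 beside -0.03, and 3 of 8 had an unadjusted p under 0.05 (Gata3, Icos at -3.80 and Lck at -2.17) against 17.7%.

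Other genes of T cell identity and receptor signalling were read from a list of 40, of which 37 had a row and 25 were tested. In TLR3-KO injured over TLR3-KO control libraries 23 of the 25 were negative, with a median of -1.13, and 0 passed by edgeR. Of the 25, 4 had an unadjusted p under 0.05, against 23.9% of all genes. These were Cxcr6, Cd4, Skap1 and Lat, and their fitted values were -2.48, -1.53, -2.60 and -0.90. The median was -1.92 with TLR3-KO controls 3 and 4 alone, where 12 of the 25 passed beside 33% of all genes, and 0.54 with controls 1 and 2 alone, where 0 passed. In WT injured over WT control libraries 21 of 25 were positive (median 0.34, 0 passed), and in TLR3-KO over WT controls 24 of 25 were positive (median 0.82, 0 passed). Without WT control 4 the WT median was 1.24, and without TLR3-KO control 4 the median between control genotypes was 0.19.

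Defining genes of the list were read in each library. Zap70, the kinase that binds phosphorylated CD3 chains, had 0.0235, 0.0423, 0.0674 and 0.278 CPM in TLR3-KO injured libraries 1 to 4, against 0, 0.0210, 0.654 and 0.552 CPM in TLR3-KO controls 1 to 4. Cd247, which encodes the zeta chain of the receptor, had 0.0634 to 0.603 CPM in TLR3-KO injured libraries, against 0.142, 0.0421, 0.949 and 1.77 CPM in TLR3-KO controls. Tcf7, a transcription factor of early and naive T cells, had 0.141 to 1.21 CPM in TLR3-KO injured libraries, against 0.261, 0.189, 2.68 and 4.37 CPM in TLR3-KO controls. Each of these was high in the same 2 controls as CD3. In WT the high control was WT control 4 alone, with 1.07 CPM of Cd247 and 2.36 CPM of Tcf7 against at most 0.345 and 0.492 CPM in WT controls 1 to 3.

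Cd4 and Cd8a encode coreceptors of the helper and cytotoxic lineages. Cd4 had 0.188, 0.275, 0.101 and 0.394 CPM in TLR3-KO injured libraries, against 0.261, 0.358, 1.37 and 0.759 CPM in TLR3-KO controls. Cd8a had 0.486 to 0.672 CPM in TLR3-KO injured libraries, against 0.284, 0.463, 0.527 and 1.20 CPM in TLR3-KO controls. Cd4 was highest in TLR3-KO control 3 and Cd8a in TLR3-KO control 4. In TLR3-KO control 3, which had the most CD3, Cd8a lay within the range of the TLR3-KO injured libraries. Cd8b1 of the same list was fitted at -2.10 (SE 1.12) in TLR3-KO following pneumonia. Cd8a was fitted at -0.21 (SE 0.40), and neither passed by edgeR. Grap2, an adaptor found in several blood cell types, was lowest in TLR3-KO control 3, with 6.88 to 8.38 CPM in TLR3-KO injured libraries, against 16, 11.2, 3.98 and 7.31 CPM in TLR3-KO controls. Ccr7, a chemokine receptor of naive T cells and of dendritic cells, was highest in TLR3-KO controls 3 and 4, with 8.56 to 10.2 CPM in TLR3-KO injured libraries against 9.86, 7.32, 22.5 and 16.6 CPM in TLR3-KO controls.

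The 2 TLR3-KO controls with the most CD3 differed from each other in other T cell genes, which were chosen after their values were seen. Cxcr6, a chemokine receptor of tissue-resident T cells, had 4.68 CPM in TLR3-KO control 3 and 1.17 CPM in control 4, and Pdcd1, the inhibitory receptor PD-1, had 4.53 and 1.33 CPM. Lef1, a transcription factor of naive T cells, had 0.358 CPM in control 3 and 1.98 CPM in control 4. Control 3 was thus the higher of the pair for Cxcr6 and Pdcd1, and control 4 for Lef1. Among the other genes of naive T cells given above, Ccr7 was higher in control 3 and Tcf7 in control 4. These values do not assign a type of T cell to either control.

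Markers of other lymphoid cells moved with some of these libraries. Cd79a, a subunit of the B cell receptor, had 1.76 to 3.57 CPM in TLR3-KO injured libraries, against 6.26, 1.49, 0.590 and 15.6 CPM in TLR3-KO controls 1 to 4. In WT it had 0.724, 1.57, 0.228 and 7.39 CPM in injured libraries, against 1.14, 0.0914, 0.443 and 7.92 CPM in controls. It was therefore high in TLR3-KO control 4 and WT control 4 and low in TLR3-KO control 3, the library with the most CD3. Ms4a1, which encodes the B cell surface protein CD20, had 0.775 to 1.01 CPM in TLR3-KO injured libraries, against 1.99, 0.779, 0.232 and 4.67 CPM in TLR3-KO controls 1 to 4. It too was lowest among those controls in control 3. The B cell list had 14 counted genes, of which 12 were tested and none passed by edgeR, with a median of -0.95 in TLR3-KO injured over TLR3-KO control libraries. Their sum was 153 to 175 CPM in TLR3-KO injured libraries and 143 to 190 CPM in TLR3-KO controls, most of it Cd22.

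Natural killer and cytotoxic genes summed to 3.37 to 8.30 CPM in TLR3-KO injured libraries, against 3.82, 3.01, 9.61 and 12.9 CPM in TLR3-KO controls. They summed to 4.55 to 9.36 CPM in WT injured libraries and 2.31 to 7.29 CPM in WT controls. Ncr1, the natural killer receptor NKp46, was at 0 in 3 of 4 TLR3-KO injured libraries and in 2 of 4 TLR3-KO controls, and no library exceeded 0.206 CPM. Of 16 such genes 9 were tested and none passed by edgeR, with medians of -0.57 in TLR3-KO and 1.0 in WT following pneumonia. Il13, a cytokine of group 2 innate lymphoid cells and T helper 2 cells, had at most 0.0276 CPM in any library. Il5, another cytokine of these cells, had a mean of 0.132 CPM over the 16 libraries and did not pass the filter on low counts. Il1rl1, their interleukin 33 receptor, had 0.303 to 0.603 CPM in TLR3-KO injured libraries and 0.168 to 0.437 CPM in TLR3-KO controls. Of 4 tested genes of group 2 innate lymphoid cells 3 were negative and none passed by edgeR (median -0.40). The list summed to 17.2 to 22.5 CPM in TLR3-KO injured libraries and 20.6 to 35.4 CPM in TLR3-KO controls. Rora and Areg, with means of 15.9 and 6.0 CPM over the 16 libraries, made up most of that sum. The part of natural killer and group 2 innate lymphoid cells in the T cell transcripts was not tested.

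**Figure D5:**
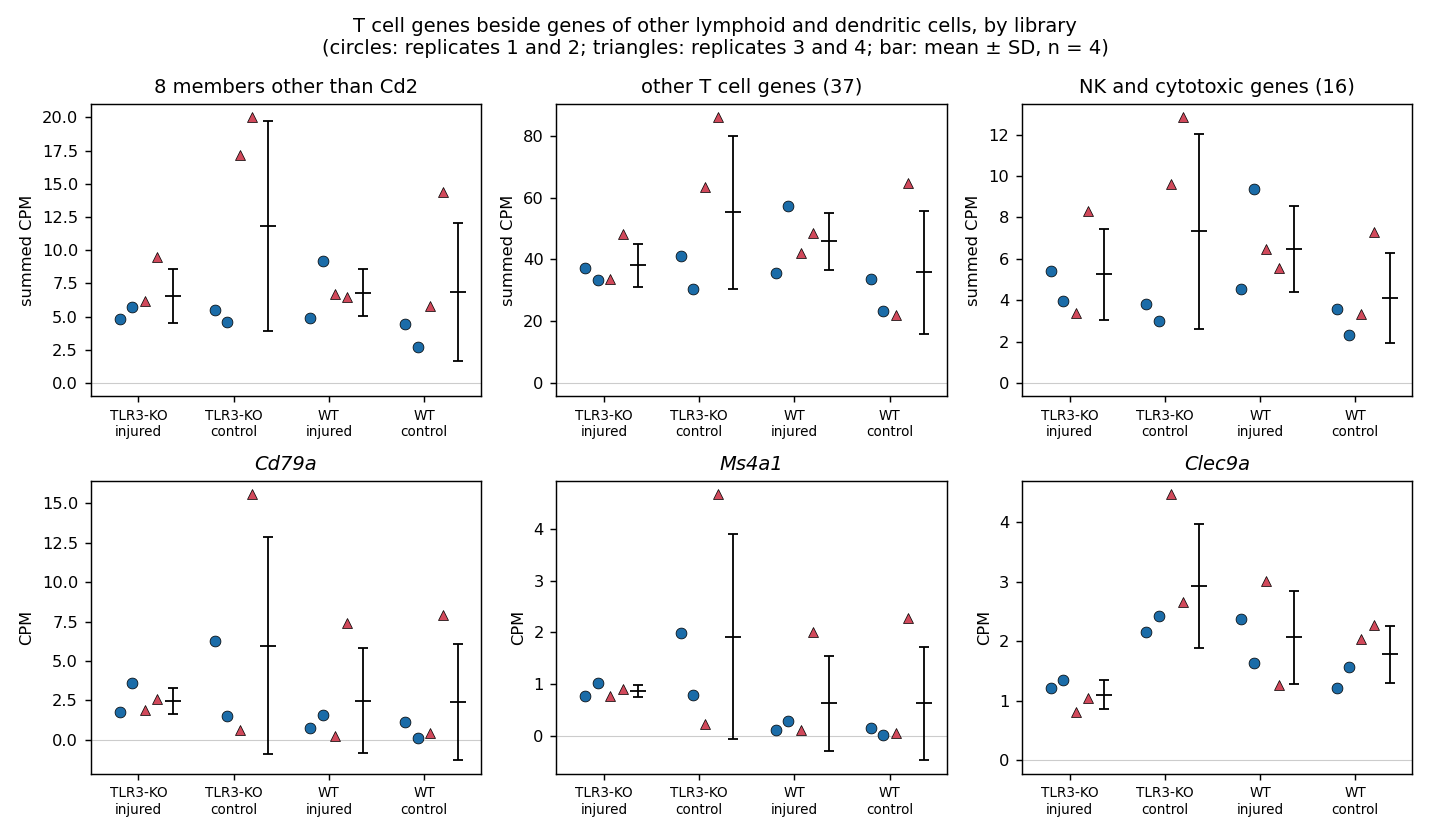
Upper row, summed CPM per library of the 8 transcripts other than Cd2, of 37 other T cell genes and of 16 natural killer and cytotoxic genes. Lower row, CPM of Cd79a, Ms4a1 and Clec9a. Groups run from TLR3-KO injured to WT control, circles are replicates 1 and 2, triangles are replicates 3 and 4, and bars give the mean with SD over 4 libraries. TLR3-KO control 4 is highest in both B cell panels, and Clec9a is lower in all 4 TLR3-KO injured libraries than in all 4 TLR3-KO controls.

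Other cell types were read beside these. Clec9a, a marker of conventional dendritic cells, fell in TLR3-KO libraries following pneumonia, with 1.22, 1.35, 0.809 and 1.04 CPM in injured libraries against 2.16, 2.42, 4.47 and 2.67 CPM in controls (log2 fold change -1.45, SE 0.30, edgeR adjusted p = 0.0376). It was the 1 of 13 tested dendritic cell genes that passed in that comparison, and of the 13 fitted values 7 were positive, with a median of 0.05. The Clec9a call was kept without TLR3-KO control 2 (edgeR adjusted p = 0.0186) and lost without any 1 of the other 7 libraries (edgeR adjusted p 0.0626 to 0.1245), while its log2 fold change stayed between -1.57 and -1.18. It was also lost in the fit with the replicate block (edgeR adjusted p = 0.0713). Lcn2, a granule protein of neutrophils that epithelium and macrophages also make, was higher in TLR3-KO injured libraries (5.06, SE 1.11, edgeR adjusted p = 0.0425), at 33.0, 3.72, 10.3 and 51.8 CPM against at most 1.01 CPM in TLR3-KO controls. The Lcn2 call was likewise kept without TLR3-KO control 2 (edgeR adjusted p = 0.0353) and lost without any 1 of the other 7 libraries (0.0586 to 0.1175), with log2 fold changes of 4.42 to 5.42. Lung epithelial genes summed to 630 to 768 CPM in TLR3-KO injured libraries, against 715, 633, 261 and 277 CPM in TLR3-KO controls 1 to 4. They were thus lowest in the TLR3-KO controls in which CD3 was highest. Most of the sum was Krt19, an epithelial keratin, with 481 to 566 CPM in TLR3-KO injured libraries against 543, 475, 103 and 142 CPM in TLR3-KO controls. Epcam, an epithelial adhesion molecule, had 22.4 to 44.6 CPM in TLR3-KO injured libraries against 81.1, 49.9, 93.0 and 35.7 CPM in TLR3-KO controls (log2 fold change -1.08, not passed by edgeR). Sums of 18 macrophage genes lay between 58383 and 75874 CPM in all libraries.

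Partners of CD2 were read from a list of 14, of which 13 had a row and 12 were tested. Cd48, the mouse ligand of CD2, had 179, 178, 161 and 184 CPM in TLR3-KO injured libraries, against 134, 174, 243 and 273 CPM in TLR3-KO controls. It had 187 to 221 CPM in WT injured libraries and 196 to 304 CPM in WT controls. Ligand and receptor RNA were thus both abundant in libraries labelled macrophages. Cd59a, a complement regulator of the list, was higher in TLR3-KO than in WT libraries, at 0.654 to 1.39 against 0.0685 to 0.219 CPM in controls (3.13, SE 0.40, edgeR adjusted p = 0.00114), although with controls 3 and 4 alone it did not pass (2.47, edgeR adjusted p = 0.128). In injured libraries Cd59a had 1.65 to 1.86 CPM in TLR3-KO and 0.183 to 0.491 CPM in WT (2.41, SE 0.36, edgeR adjusted p = 0.00543).

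Genes outside these lists were ranked by likeness over the 16 libraries. Nearest to the mean log2(CPM + 0.1) of the 3 CD3 genes among 11130 genes with a mean of at least 0.5 CPM were Nhej1 (r = 0.914), Phf7 (0.907), Terf1 (0.906), Med4 (0.892), Gtf2h2 (0.891) and Wdyhv1 (0.884). Phf7, for example, had 2.49 to 3.80 CPM in TLR3-KO injured libraries, against 2.28, 2.69, 8.81 and 7.75 CPM in TLR3-KO controls 1 to 4. In each of these 6, TLR3-KO controls 3 and 4 lay above TLR3-KO controls 1 and 2, as in 39.9% of all tested genes. That order follows from choosing the genes by their likeness to CD3. Nearest to Cd2 among 8788 genes with a mean of at least 5 CPM were Camk1 (r = 0.965), Rabac1 (0.956), Pitpna (0.954), Capzb (0.953), Dhrs7b (0.948) and S100a11 (0.947). Camk1 had 335 to 414 CPM in TLR3-KO injured libraries, against 420 to 590 CPM in TLR3-KO controls.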

How the data were processed

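Macrophages were isolated from lavage fluid and RNA was extracted with a Qiagen RNeasy Mini kit for TruSeq mRNA libraries read as pairs of 50 bases, per the labels' protocols. Reads were aligned to mm10, and FastQC 0.11.3, TopHat2 2.0.13, Bowtie2 2.2.1, Cufflinks and Cuffdiff 2.1.1 are named, per the submitters' processing notes. The table the authors deposited holds raw HTSeq counts, whole numbers under gene symbols. Its HTSeq version, strand setting and annotation are not stated in these sources, so overlapping genes may share counts.

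CPM was computed from the deposited counts as reads scaled to the library total. The edgeR 4.0.16 quasi-likelihood test was run on the counts with TMM factors (0.896 to 1.07), 1 coefficient per group over 16 libraries, robust estimation, filterByExpr at a minimum count of 10 and Benjamini-Hochberg adjustment over 12455 genes, with 10704 removed. The threshold was 0.05. The SE of a fold change is its size over the square root of F. Alternatives were RLE factors, DESeq2 1.42.0, limma 3.58.1 voom with equal weights, no filter, the replicate block, each pair of controls and each library left out. A fit without robust estimation, and the alternatives for Clec9a, Lcn2 and Cd59a, were added after seeing the data. The model was tested on simulated data with a common dispersion for all genes and no split among controls. That test therefore does not cover the split seen here.

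Whether replicate numbers pair libraries was checked by correlating departures from group means over 12455 genes. Control libraries of the 2 genotypes with 1 number in their titles correlated at 0.597 to 0.626, each pair over 0.1, and for 6 of 8 the best match had the same number. The count with the block is therefore printed for that comparison. No 2 libraries of a group were copies: the chi-square per degree of freedom was at least 8.43. Poisson intervals have 95% confidence, cover counting error only, and treat reads as independent molecules, which PCR copies are not.

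The 9 members, the 11 marker lists, the tests and the rule for naming genes were chosen with earlier results of these data known. The rule named all 9 members, list genes that passed, the 3 most abundant genes of a list, fixed defining genes and the 6 genes most alike in pattern, and the text names the few of these that bear on the members. Positions came from GENCODE M21, and promoters from RefSeq (GRCm38.p6). Tables used pandas 2.3.3 under python 3.11.15, with scipy 1.17.1 for intervals, and matplotlib 3.10.9 drew the figures.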

Additional observations from a re-analysis of the deposited data

Results flagged for a closer look

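In 3 of 35 groups of 4 libraries with any spread, 1 library stood far from the other 3 of its group by Dixon's criterion. Normally distributed values meet it in about 1 of 20 groups. CPM from few reads are not such values, so that rate does not hold here. A group with reads in only 1 library always meets the criterion. Cd3e had 0.603 CPM in TLR3-KO injured 4, against 0.135 to 0.188 CPM in the other 3 TLR3-KO injured libraries. That library was also the highest of its group for Cd3d, Cd3g, Lck and Icos. Icos had 0.411 CPM in WT control 4, against 0.0503 to 0.0914 CPM in WT controls 1 to 3. Thy1 had 0.0985 CPM in WT control 3, from 4 reads, and no read in the other 3 WT controls.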

How the results depend on the processing

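Of 688 values of the 8 transcripts under the alternatives, 625 kept their direction and their side of the threshold, 18 passed where they had not and 45 changed sign. RLE factors, the fit without robust estimation and the replicate block changed no sign, and with the block 0 of the 8 passed in every comparison. DESeq2 called 2 transcripts in TLR3-KO following pneumonia, 1 between control genotypes and 1 as an interaction, and RLE factors called 1 between control genotypes. Controls 3 and 4 alone gave 8 calls in TLR3-KO, and controls 1 and 2 alone gave 1 in WT. With 1 library left out, calls ranged from 0 to 2 in TLR3-KO, from 0 to 1 between control genotypes, and from 0 to 0 elsewhere.

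In TLR3-KO following pneumonia, controls 1 and 2 alone turned Cd3d to 0.31, Cd3e to 3.39, Cd3g to 2.31, Lck to 0.11, Icos to 0.34 and Il7r to 0.25, and voom turned Cd3e to 0.25. In WT, controls 3 and 4 alone turned Cd3d to -0.18, Cd3e to -0.36 and Cd3g to -0.66, controls 1 and 2 alone turned Cd2 to 0.27 and Il7r to 0.44, and DESeq2 turned Cd3g to -0.0089. Between control genotypes, controls 1 and 2 alone turned Cd3e to -2.71 and Cd3g to -1.54, and voom turned Cd3e to -0.16. The interaction of Cd3e turned to 2.66 and of Cd3g to 1.07 with controls 1 and 2 alone, where TLR3-KO controls 1 and 2 held at most 2 reads of either gene each, so the sizes of Cd3e and Cd3g in comparisons with that pair depend on the prior count. The interaction of Il7r turned to 0.062 with controls 3 and 4 alone and to 0.0036 without a filter. With 1 library left out, the WT value ranged from -0.32 to 0.69 for Cd3e, -0.24 to 0.65 for Cd3g, -0.25 to 0.15 for Cd2 and -0.65 to 0.17 for Il7r. Il7r ranged from -0.064 to 0.85 between control genotypes and from -0.59 to 0.33 as an interaction, and Cd3e from -0.78 to 0.36 between injured genotypes. The causes were not tested.

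Over all genes, the 136 calls in TLR3-KO became 1031 in DESeq2, 44 without a filter, 11 with the replicate block, 82 with controls 1 and 2, 4114 with controls 3 and 4, and 0 to 1245 with 1 library left out. The 0 calls in WT became 181 in DESeq2, 11 with RLE factors, 3 with the block, 2 without robust estimation, 1 without a filter, 1661 with controls 1 and 2, and 61 with controls 3 and 4. The 82 between control genotypes became 781 in DESeq2, 147 with RLE factors, 31 with the block, 239 with controls 1 and 2, 19 with controls 3 and 4, and 15 to 464 with 1 library left out. The 0 interactions became 98 in DESeq2 and 56 with controls 1 and 2, and the 75 calls between injured genotypes became 444 in DESeq2, 21 with the block and 16 to 435 with 1 library left out. In TLR3-KO injured and control libraries, those with 1 number correlated at 0.286, 0.363, -0.140 and 0.390 for numbers 1 to 4. Their best match had the same number for 6 of 8 libraries, so pairing there was mixed. In WT injured and control libraries and between injured genotypes the correlations ran from -0.48 to 0.12. The best match had the same number for 0 of 8 libraries in each of these. Depth limits the low transcripts: 3 reads equal 0.0503 to 0.101 CPM.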

Other observations

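Cytokines, receptors and costimulators that serve T cells were read from a list of 18 genes. In TLR3-KO injured over TLR3-KO control libraries 7 of 13 tested genes were negative and the median log2 fold change was -0.02, and none passed by edgeR. The most abundant of the list were Havcr2, the receptor TIM-3, Il2rg, the gamma chain shared by several cytokine receptors, and Cd86, a costimulatory ligand of antigen-presenting cells. Il2rg had 127 to 163 CPM in TLR3-KO injured libraries, against 174, 141, 115 and 110 CPM in TLR3-KO controls 1 to 4. Havcr2 had 236 to 276 CPM in TLR3-KO injured libraries, against 251, 258, 356 and 358 CPM in TLR3-KO controls. Both genes differed between the pairs of controls, Il2rg being lower and Havcr2 higher in controls 3 and 4.

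Genes of gamma-delta T cells could be read only in part. The receptor genes of that list, among them Trdc and Tcrg-C1, matched no row, so the level of these cells' receptor RNA is not known here. The list had 7 counted genes, of which 4 were tested and none passed by edgeR, and their sum was 0.867 to 1.99 CPM in TLR3-KO injured libraries, against 1.45, 0.821, 2.55 and 5.84 CPM in TLR3-KO controls 1 to 4. Blk, which B cells also express, made up 3.04 CPM of the sum in TLR3-KO control 4. Foxp3, the transcription factor of regulatory T cells, was too low to be tested and had at most 0.207 CPM in any library.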
